A study of Mus musculus with 6 samples.

Results

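The fatty acid oxidation genes are 31 genes whose products activate fatty acids, carry them into mitochondria, break them down, or control that machinery. They were chosen by name, and their transcripts were summed per gene. All 31 were found among the 32564 genes of the series and all 31 passed the filter on low counts, which left 15012 genes to test. The cells came from the subependymal zone, the stem cell niche beside the lateral ventricles, of 3 month old mice labelled strain C56BL/6J. All the animals carried the gfap:GFP transgene, in which the Gfap promoter, active in astrocytes as well as stem cells, drives green fluorescent protein. The cells were flow-sorted as quiescent neural stem cells. Cells were collected 3 days after an injection into the ventricles of either artificial cerebrospinal fluid (aCSF, the vehicle, 3 libraries) or antagomirs against miR-204 (3 libraries). The titles and treatment groups of the samples give these groups, but the treatment protocol in the labels names the antagomir for all 6 samples, vehicle included. Antagomirs are modified oligonucleotides that bind and block a microRNA. No control oligonucleotide is named, so an effect of the injected oligonucleotide cannot be told apart from one of blocking miR-204. The labels do not say whether replicates were separate animals or pools, so the tests measure spread between samples that may be technical.

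As background, a long-chain fatty acid is first joined to coenzyme A by an acyl-CoA synthetase. It is then passed to carnitine by a carnitine palmitoyltransferase (CPT), moved across the inner mitochondrial membrane and returned to coenzyme A. Each turn of beta-oxidation then shortens it through a dehydrogenase, a hydratase, a second dehydrogenase and a thiolase, with electrons passed to the respiratory chain through the electron transfer flavoprotein. In the adult brain the pathway runs mainly in astrocytes and related glia, and it is known for its use by quiescent neural stem cells.

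miR-204-5p acts by pairing of its seed, bases 2 to 8, with sites in the 3′ untranslated regions (UTRs) of messenger RNAs. Its mature sequence (RefSeq, GRCm38.p6, chr19:22750610-22750631, plus strand) is shown with the seed in capitals.
miR-204-5p: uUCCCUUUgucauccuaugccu
Matches AAAGGGA (7mer-m8), or AAAGGGAA (8mer, which contains the 7mer), were searched on the sense strand in the 3′ UTR of each gene's most abundant coding transcript in GENCODE M21 (GRCm38). At least 1 match was present in 6 of 31 members (19.4%) and in 1946 of 14281 tested genes with such a transcript (13.6%). The matched stretches of these 6 members are shown, with the match in capitals, because they are where the blocked microRNA could pair with these messages.
Cpt1a (chr19:3384087-3384113, plus strand): ctcctaatggatAAAGGGAtttaaatg
Crat, first site (chr2:30402103-30402129, minus strand): gtctttgtagccAAAGGGAcatctgag
Crat, second site (chr2:30401942-30401969, minus strand): caggtgatcaatAAAGGGAAgaagtgct
Acads (chr5:115110753-115110779, minus strand): tggtcagaccagAAAGGGActtgcctt
Acad9 (chr3:36092269-36092296, plus strand): ttcctccctagaAAAGGGAAtaaaatac
Acat1 (chr9:53580554-53580580, minus strand): ggaggtgggccaAAAGGGAtgttaaag
Acsl4 (chrX:142319535-142319562, minus strand): cctggggaagttAAAGGGAAgaaaacac
The sites in Acad9 and Acsl4 and the second of Crat were 8mers. Among genes whose 3′ UTR was within 10% of the same length, a match was held by 21.8% for Cpt1a, 15.6% for Crat, 6.68% for Acads, 22% for Acad9, 21.4% for Acat1 and 28.6% for Acsl4. The median log2 fold change of antagomir over vehicle was -0.0796 in the 6 members with a match and -0.13 in the 25 without one, beside 0.028 and -0.00597 over all searched genes. A match describes these letters only and is not a shown site of action.

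The libraries held 14866453 to 19694409 estimated counts. Within a gene, levels are in CPM (counts scaled to a common library total with TMM factors), and between genes in TPM (which also divides by transcript length). Values of single libraries are given in the order of replicates 1, 2 and 3, those after vehicle before those after antagomir. Beside the stem cell markers, with summed levels of 2225 to 2378 TPM with vehicle and 1598 to 2192 TPM with antagomir over 8 genes, all 8 astrocyte markers were present in every library. Markers of other cell types were also present, with 7 oligodendrocyte markers at 6471 to 13906 and 11129 to 15349 TPM and 6 ependymal markers at 2827 to 3722 and 2055 to 3491 TPM, so the sorted cells were not shown here to be stem cells alone. Vehicle replicate 1 stood apart with 1729.6 TPM over 8 microglia markers, against 85.8 to 217 TPM in the other 5 libraries. Antagomir replicate 1 also stood apart, with 1478 TPM over 7 neuroblast markers against 454 to 951 TPM elsewhere and the lowest ependymal sum. The 5 endothelial markers summed to 3.93 to 13.3 TPM, with Cldn5, Cdh5 and Ly6c1 at 0 in at least 1 library. The 5 choroid plexus markers summed to 52.5 to 119 TPM, nearly all from Folr1 (32.7 to 87.2 TPM) and Clic6 (17.6 to 36.8 TPM), while Ttr and Aqp1 were at 0 in at least 1 library.

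Every step of the pathway was expressed in every library, and its overall level was nearly the same after vehicle and after antagomir. The 31 genes summed to 3321.6, 3504.8 and 3519.6 TPM in vehicle replicates 1, 2 and 3 and to 3528 (replicate 1), 3154.3 (replicate 2) and 3515.3 TPM (replicate 3) with antagomir. The groups overlapped, and antagomir replicate 2 was the lowest library. Activation genes held 22.9 to 27.8% of that sum and the later steps of beta-oxidation 22.9 to 25.4%. Electron transfer genes held 14.2 to 17.6%, the acyl-CoA dehydrogenases 13.4 to 15.3%, and the carnitine shuttle 7.33 to 8.27%.

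**Figure D1:**
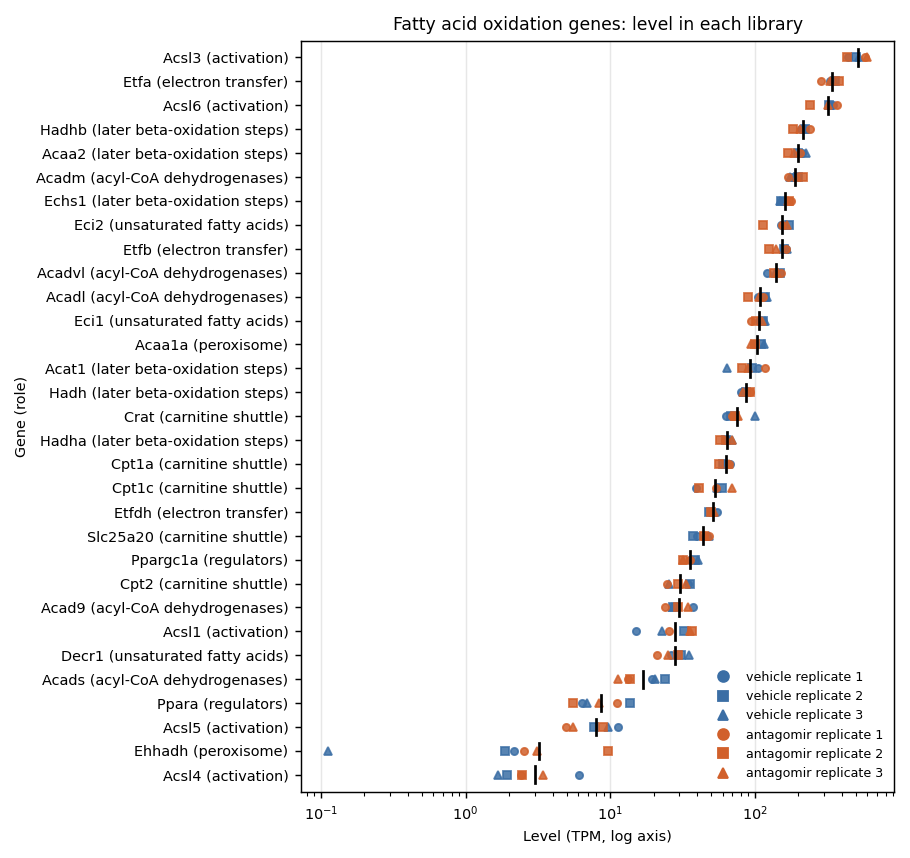
Level of each of the 31 fatty acid oxidation genes in TPM (log axis), with 1 point per library and a black bar at the mean of 6 libraries. The genes run from 3 TPM (Acsl4) to 512 TPM (Acsl3), and the vehicle and antagomir points of most genes lie on top of each other.

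No member passed the test between antagomir and vehicle. The quasi-likelihood test of edgeR, adjusted by Benjamini-Hochberg over 15012 genes, called 0 of 31 members and 0.0% of all tested genes, and the members' adjusted p ranged from 0.949 to 0.998. At an unadjusted p under 0.05 edgeR had 1 member, Acads, against 4.1% of all tested genes. DESeq2 and limma-voom also called 0 members, with 2 and 1 members under an unadjusted p of 0.05, against 5.21% and 4.64% of all tested genes. Log2 fold changes of antagomir over vehicle were negative in 21 of 31 members (67.7%), against 50.9% of all tested genes, with a median of -0.10 against -0.0062. The median was -0.031 without antagomir replicate 2, when 17 members were negative. It was -0.088 without vehicle replicate 1, when 23 were negative, and -0.11 without antagomir replicate 1, when 25 were. The 95% interval of the fold change lay wholly within 1 log2 unit of 0, thus inside a 2-fold change in either direction, for 25 of 31 members and for 58.9% of all tested genes. The other 6 were Acsl1, Acsl4, Acsl5, Acads, Ehhadh and Ppara.

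**Figure D2:**
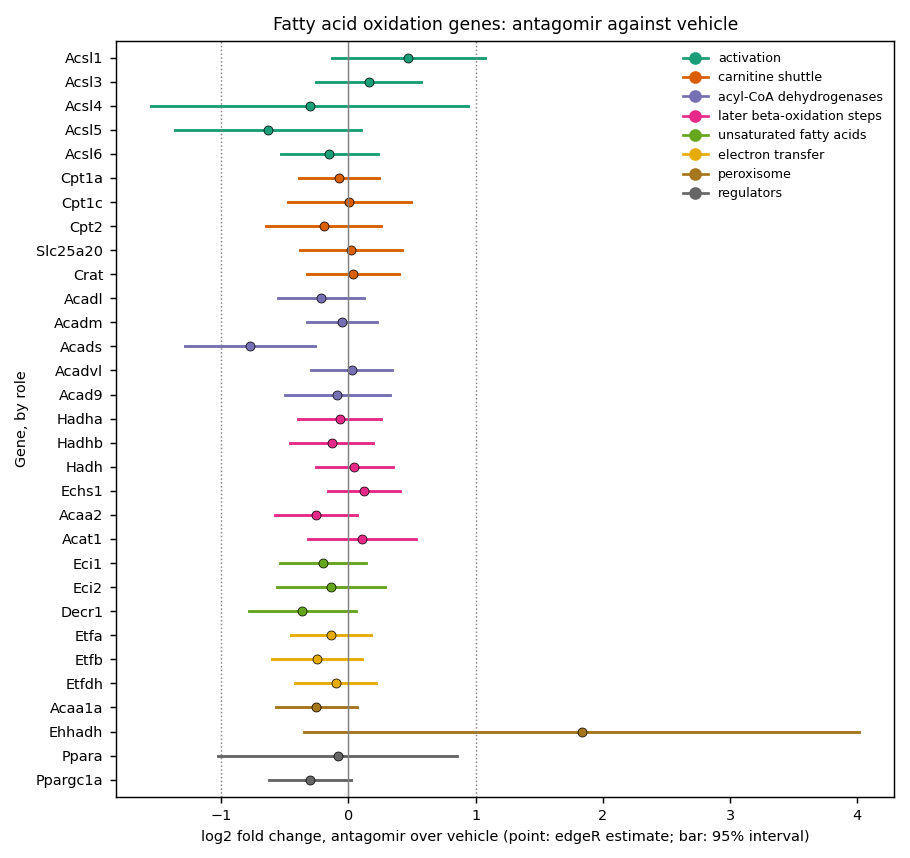
Log2 fold change of antagomir over vehicle for each member, grouped by role, with the edgeR estimate as a point and its 95% interval as a bar. Dotted lines mark 1 log2 unit either side of 0, and the bar of Acads alone lies wholly on one side of 0 (before adjustment for 15012 genes).

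Levels in the vehicle and antagomir libraries did not overlap in CPM for 8 of 31 members (25.8%), against 10.5% of all tested genes. Of the 8, 6 were lower with antagomir (Acads, Decr1, Ppargc1a, Acaa1a, Etfb and Eci1), where 5.45% of all genes were, and 2 were higher (Echs1 and Ehhadh), where 5.07% were. On the TPM scale, compared after the CPM values had been seen, 4 of 31 (12.9%) did not overlap, namely Acads, Ppargc1a, Echs1 and Ehhadh, against 10.8% of all tested genes. The median within-group coefficient of variation of the members was 9.75%. It was 19.4% over the 11939 tested genes between the lowest and highest mean CPM of the members. That range holds most of the 15012 tested genes, so the comparison was not matched for level. The part of level in the lower value was not tested. Apart from Acads and Ehhadh, the 8 members without overlap had log2 fold changes between -0.36 and 0.12.

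**Figure D3:**
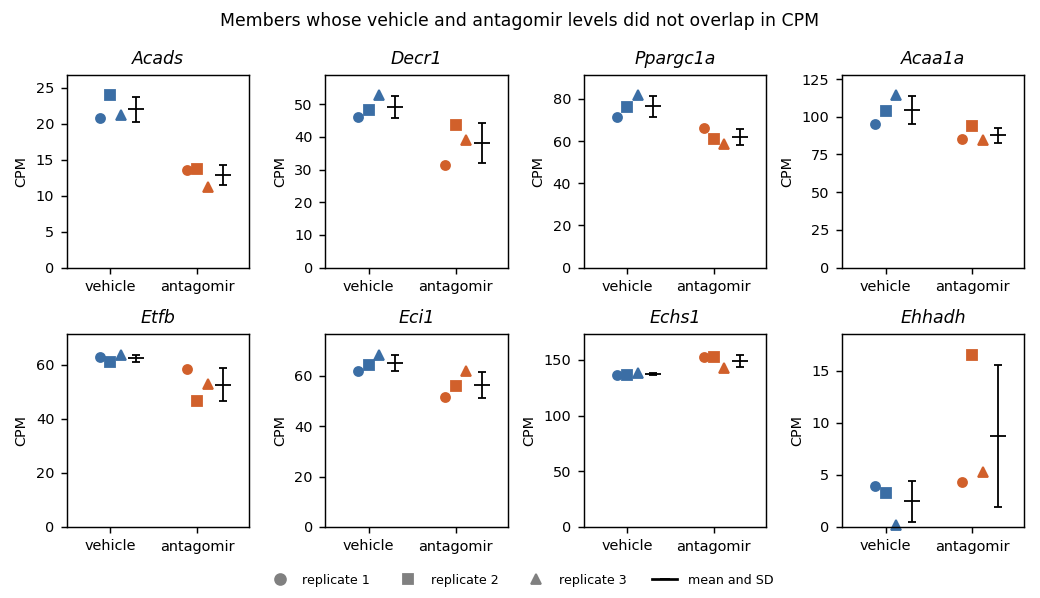
CPM in each library for the 8 members whose groups did not overlap, with the mean and SD of 3 libraries beside the points. Acads lay at 11.2 to 13.7 CPM after antagomir against 20.8 to 23.97 CPM after vehicle, and Ehhadh spread from 0.203 to 16.5 CPM.

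The acyl-CoA synthetases Acsl3 and Acsl6 were the main activation genes, and none of the 5 synthetases passed the test. Acsl3, which is known for lipid droplet formation as well as activation, was the most abundant member at 512 ± 69.3 TPM (mean ± SD, n = 6). It measured 702, 694 and 727 CPM in vehicle replicates 1 to 3 and 913, 587 and 869 CPM in antagomir replicates 1 to 3 (log2 fold change 0.16 ± 0.18 (SE), edgeR adjusted p = 0.953). The antagomir libraries lay on both sides of the vehicle range. Acsl6, the brain-enriched isoform that favours polyunsaturated fatty acids, had a mean of 322 ± 43.5 TPM, with 618, 580.0 and 599.9 CPM after vehicle and 642, 430.3 and 549.5 CPM after antagomir (log2 fold change -0.15 ± 0.16 (SE), edgeR adjusted p = 0.953). Its lowest value was again in antagomir replicate 2, and its fold change ranged from -0.29 to -0.0021 when single libraries were left out.

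Acsl1, a synthetase tied to oxidation in muscle and fat, measured 27.2, 52.6 and 37.9 CPM after vehicle and 44.3, 60.6 and 58.2 CPM after antagomir (log2 fold change 0.47 ± 0.26 (SE), edgeR adjusted p = 0.949). The groups overlapped, since vehicle replicate 2 lay above antagomir replicate 1, and the lowest level was in vehicle replicate 1. The 6 libraries stood in the same order for Acsl1 as for the oligodendrocyte markers, whose sums were 6471, 13906 and 9788 TPM after vehicle and 11129, 15349 and 14641 TPM after antagomir. Their part in the result was not tested. Without vehicle replicate 1 the fold change of Acsl1 was 0.27. Acsl5, a synthetase of mitochondrial and endoplasmic reticulum membranes, measured 21.3, 14.1 and 18.2 CPM after vehicle and 8.76, 16.1 and 9.75 CPM after antagomir (log2 fold change -0.63 ± 0.32 (SE), edgeR adjusted p = 0.949), with antagomir replicate 2 inside the vehicle range. Acsl4, which favours arachidonic acid and carries an 8mer match to miR-204-5p, measured 19.2, 5.69 and 5.13 CPM after vehicle and 7.12, 7.16 and 10.04 CPM after antagomir (log2 fold change -0.30 ± 0.54 (SE), edgeR adjusted p = 0.958). The high value lay in vehicle replicate 1, the library rich in microglia markers, and the fold change turned to 0.59 without it. In a mixed sort, fewer cells of a type and less RNA per cell cannot be told apart.

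Carnitine shuttle genes had overlapping groups in 5 of 5 members, with log2 fold changes from -0.19 to 0.035. Cpt1a (ENSMUSG00000024900.5, chromosome 19, 3322334 to 3385733 in GRCm38) encodes the outer-membrane CPT that is the rate-controlling step of long-chain oxidation. It measured 174, 151 and 163 CPM after vehicle and 162, 139.7 and 163 CPM after antagomir (log2 fold change -0.071 ± 0.14 (SE), edgeR adjusted p = 0.963). Its 95% interval was -0.38 to 0.24, so a change of 2-fold lies outside it, and the groups overlapped. Cpt1a carries a 7mer match to miR-204-5p, and its fold change ranged from -0.12 to 0.0033 when single libraries were left out. Cpt1c, the neuron-enriched isoform of the endoplasmic reticulum with little catalytic activity, was nearly as abundant, at 0.584 to 1.05 times the TPM of Cpt1a. Cpt1c measured 61.03, 85.1 and 86.3 CPM after vehicle and 81.5, 60.5 and 91.7 CPM after antagomir, and its groups overlapped (log2 fold change 0.0079 ± 0.21 (SE), edgeR adjusted p = 0.998).

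Cpt2, the inner-membrane transferase that returns the chain to coenzyme A, was at 0.376 to 0.591 times the TPM of Cpt1a. It measured 47.2, 44.1 and 33.6 CPM after vehicle and 31.9, 39.1 and 38.1 CPM after antagomir (log2 fold change -0.19 ± 0.20 (SE), edgeR adjusted p = 0.9503). Antagomir replicate 1 was its lowest library and vehicle replicate 1 its highest. Slc25a20, the carnitine-acylcarnitine translocase, measured 41.7, 39.2 and 51.3 CPM and 47.4, 43.5 and 42.99 CPM (log2 fold change 0.018 ± 0.17 (SE), edgeR adjusted p = 0.992). Crat, carnitine acetyltransferase, which buffers acetyl-CoA and carries 2 matches to miR-204-5p, measured 102, 84.5 and 118 CPM and 103, 101 and 107 CPM (log2 fold change 0.035 ± 0.16 (SE), edgeR adjusted p = 0.987). All 3 overlapped between the groups. The muscle isoform Cpt1b did not pass the filter, with counts of 3, 0 and 43 with vehicle and 0, 0 and 7 with antagomir.

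Among the acyl-CoA dehydrogenases, which catalyse the first step of each turn, the short-chain enzyme gene Acads stood lowest against vehicle. Acads (ENSMUSG00000029545.13, chromosome 5, 115110299 to 115119346 in GRCm38) measured 20.8, 23.97 and 21.2 CPM after vehicle and 13.6, 13.7 and 11.2 CPM after antagomir, or 21.99 ± 1.73 CPM after vehicle and 12.8 ± 1.395 CPM after antagomir (mean ± SD, n = 3). All 3 antagomir libraries lay below all 3 vehicle libraries. Its log2 fold change was -0.78 ± 0.22 (SE, 95% interval -1.29 to -0.27), and it did not pass edgeR's test over all genes (adjusted p = 0.949). DESeq2 gave an adjusted p of 0.478, the lowest among 14 alternatives, and the fold change ranged from -0.82 to -0.68 when single libraries were left out. These values rest on 370, 392 and 417 counts with vehicle and 223, 205 and 198 counts with antagomir. Its 7mer match to miR-204-5p starts at base 87 of a 3′ UTR of 555 bases. The astrocyte markers were also lower by fold change in 8 of 8 genes (median -0.31), with summed levels of 4102 to 4287 TPM with vehicle and 3133 to 4215 TPM with antagomir, and their part in the difference was not tested.

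The other 4 dehydrogenase genes had overlapping groups. Acadm, the medium-chain enzyme, was the most abundant at 188 ± 16.5 TPM and had the smallest within-group variation of the members, with 164, 171 and 170.3 CPM after vehicle and 162, 167 and 159 CPM after antagomir (log2 fold change -0.051 ± 0.12 (SE), edgeR adjusted p = 0.968). The TPM of Acads was 0.108 to 0.121 times that of Acadm with vehicle and 0.0584 to 0.0786 times with antagomir. Acadvl, the very-long-chain enzyme of the inner membrane, measured 142, 172 and 167 CPM and 173, 154 and 164 CPM (log2 fold change 0.025 ± 0.14 (SE), edgeR adjusted p = 0.9904). Acadl, the long-chain enzyme, measured 115, 124 and 136 CPM and 118, 94.1 and 112 CPM (log2 fold change -0.21 ± 0.15 (SE), edgeR adjusted p = 0.949), with antagomir replicate 1 inside the vehicle range. Acad9, which also serves assembly of respiratory complex I and carries an 8mer match, measured 46.4, 36.7 and 47.2 CPM and 37.4, 43.8 and 41.5 CPM (log2 fold change -0.088 ± 0.18 (SE), edgeR adjusted p = 0.964).

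The later steps are carried by the trifunctional protein, whose alpha and beta subunits are Hadha and Hadhb, and by soluble matrix enzymes. Hadha and Hadhb lie head to head on chromosome 5, their annotated starts 86 bases apart. Hadhb was the more abundant in TPM, at 184 to 240.0 against 57.4 to 69.6 for Hadha, a ratio of Hadha to Hadhb of 0.257 to 0.338 over the 6 libraries. The Hadha level is uncertain, since 59.4 to 69.8% of it was assigned to a transcript annotated as non-coding (Hadha-201) and 14.6 to 23.1% to the coding Hadha-205. Hadha measured 96.3, 85.1 and 95.9 CPM after vehicle and 92.4, 78.7 and 93.4 CPM after antagomir (log2 fold change -0.069 ± 0.14 (SE), edgeR adjusted p = 0.964). Hadhb measured 249, 249 and 263 CPM and 264, 202 and 230.2 CPM (log2 fold change -0.13 ± 0.14 (SE), edgeR adjusted p = 0.953). In both genes antagomir replicate 2 was the lowest library and the groups overlapped.

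Echs1, the short-chain enoyl-CoA hydratase, had somewhat higher values after antagomir and did not pass the test. It measured 137, 137 and 138 CPM after vehicle and 153, 152 and 143 CPM after antagomir, with no overlap (log2 fold change 0.12 ± 0.12 (SE), edgeR adjusted p = 0.9503, 95% interval -0.16 to 0.40). The interval included 0. Hadh, the short-chain 3-hydroxyacyl-CoA dehydrogenase, measured 83.1, 85.99 and 84.9 CPM and 89.7, 92.3 and 80.2 CPM (log2 fold change 0.046 ± 0.13 (SE), edgeR adjusted p = 0.976). Acaa2, the mitochondrial 3-ketoacyl-CoA thiolase, measured 179.9, 163 and 193 CPM after vehicle and 163, 136 and 150.4 CPM after antagomir (log2 fold change -0.25 ± 0.14 (SE), edgeR adjusted p = 0.949). Its groups met almost exactly, since antagomir replicate 1 lay just above vehicle replicate 2. Acat1, the mitochondrial acetoacetyl-CoA thiolase that also serves ketone body use, measured 165, 139 and 122 CPM and 186, 135 and 137 CPM (log2 fold change 0.11 ± 0.18 (SE), edgeR adjusted p = 0.958), and the highest value of each group was in replicate 1.

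Genes for unsaturated fatty acids and for electron transfer had negative fold changes in 3 of 3 members each, none past the test. In the other roles they were negative in 3 of 5 activation, 2 of 5 carnitine shuttle and 4 of 5 dehydrogenase genes. They were also negative in 3 of 6 genes of the later steps, 1 of 2 peroxisomal genes and 2 of 2 regulators. Negative fold changes were held by 67.7% of all members and 50.9% of all tested genes. Decr1, the 2,4-dienoyl-CoA reductase, measured 46.2, 48.1 and 52.8 CPM after vehicle and 31.6, 43.8 and 39.1 CPM after antagomir, without overlap (log2 fold change -0.36 ± 0.18 (SE), edgeR adjusted p = 0.949, 95% interval -0.79 to 0.0598). Eci1, an enoyl-CoA isomerase of mitochondria, measured 62.1, 64.4 and 68.4 CPM and 51.7, 55.9 and 61.9 CPM (log2 fold change -0.20 ± 0.15 (SE), edgeR adjusted p = 0.949), its groups separated by less than 1 CPM. Eci2, an isomerase found in mitochondria and peroxisomes, measured 89.6, 92.3 and 87.99 CPM and 95.01, 61.4 and 89.4 CPM (log2 fold change -0.13 ± 0.18 (SE), edgeR adjusted p = 0.953). The low value of Eci2 was in antagomir replicate 2 alone, and its fold change was 0.043 without that library.

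Etfa and Etfb encode the 2 subunits of the electron transfer flavoprotein, and Etfdh the dehydrogenase that hands its electrons to ubiquinone. Etfa was the second most abundant member at 339.6 ± 32.3 TPM and measured 244, 249 and 258 CPM after vehicle and 200.2, 254 and 227 CPM after antagomir (log2 fold change -0.14 ± 0.14 (SE), edgeR adjusted p = 0.9503). Etfb measured 62.7, 60.9 and 63.6 CPM and 58.5, 46.6 and 52.8 CPM, without overlap (log2 fold change -0.25 ± 0.15 (SE), edgeR adjusted p = 0.949). The TPM of Etfa was 1.73 to 3.01 times that of Etfb, and both extremes lay among the antagomir libraries. Etfdh was far lower, at 0.1304 to 0.175 times the TPM of Etfa, with 74.03, 64.8 and 71.7 CPM and 62.7, 66.1 and 67.5 CPM (log2 fold change -0.10 ± 0.14 (SE), edgeR adjusted p = 0.953).

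The 2 peroxisomal members had fold changes of opposite sign, neither past the test. Acaa1a, the peroxisomal 3-ketoacyl-CoA thiolase, measured 95.1, 104 and 114 CPM after vehicle and 85.2, 93.6 and 84.5 CPM after antagomir, without overlap (log2 fold change -0.25 ± 0.14 (SE), edgeR adjusted p = 0.949). It has a close copy, Acaa1b, at 3.44 ± 1.44 CPM after vehicle and 2.52 ± 0.503 CPM after antagomir, so reads may be divided between them with error. Ehhadh (ENSMUSG00000022853.7, chromosome 16, 21761287 to 21787807), the gene of the peroxisomal bifunctional enzyme, measured 3.88, 3.24 and 0.203 CPM after vehicle and 4.32, 16.5 and 5.27 CPM after antagomir (log2 fold change 1.83 ± 0.95 (SE), edgeR adjusted p = 0.949). Its groups did not overlap but lay less than 1 CPM apart. It was the least certain member, with 69, 53 and 4 counts with vehicle and 71, 247 and 93 with antagomir, and a 95% interval of -0.35 to 4.01. Its fold change ranged from 0.98 to 2.35 when single libraries were left out, and the lowest of these was without antagomir replicate 2.

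Ppargc1a (ENSMUSG00000029167.13, chromosome 5, 51454250 to 51567726) encodes the coactivator PGC-1alpha, which promotes mitochondrial gene expression, and measured 71.4, 76.1 and 81.8 CPM after vehicle and 66.3, 60.8 and 58.8 CPM after antagomir. All antagomir values lay below all vehicle values, in CPM and in TPM (log2 fold change -0.30 ± 0.14 (SE), edgeR adjusted p = 0.949, 95% interval -0.63 to 0.022). In TPM the groups almost met, with vehicle replicate 1 at 35.64 and antagomir replicate 1 at 35.54. The fold change of Ppargc1a ranged from -0.36 to -0.24 when single libraries were left out. Of its TPM, 27.5 to 53.7% was assigned to Ppargc1a-201, annotated as a target of nonsense-mediated decay. The coding Ppargc1a-205 held 11.9 to 35.6%, with overlap between the groups, so the level of coding message is uncertain. Ppara, the fatty acid-sensing nuclear receptor of this pathway, was low at 8.67 ± 3.17 TPM and measured 7.76, 12.2 and 5.23 CPM and 8.64, 6.02 and 9.13 CPM (log2 fold change -0.082 ± 0.41 (SE), edgeR adjusted p = 0.989). Its fold change turned from negative to 0.29 without vehicle replicate 2.

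At the transcript level the members comprised 189 transcripts. The most abundant one held over 90% of the gene's TPM in 13 members and under 60% in 7, and it was the same transcript in all 6 libraries in 26 of 31. Cpt1a, Acaa2, Acsl5, Eci1 and Ehhadh were each measured as a single transcript. Acsl6 was stable, with 81.3 to 84.4% of its TPM in Acsl6-207. Crat was split between Crat-201 (26.9 to 44.4%) and Crat-202 (28.2 to 34.6%). For Ppargc1a the leading transcript, Ppargc1a-201, is annotated as a target of nonsense-mediated decay, and its share was 47.4, 46.4 and 53.7% with vehicle and 27.5, 44.3 and 39.5% with antagomir. Top transcript shares did not overlap between the groups in 4 of the 26 members with more than 1 transcript (15.4%), against 8.81% of all tested genes with more than 1. The other 3 were Acadvl-202, higher after antagomir, and Cpt1c-201 and Eci2-211, lower. These shares were not tested and rest on a division of reads among transcripts by a model. Acsl4 varied most, with 27.1 to 100.0% of its TPM in Acsl4-203.

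Other genes of fatty acid use were read from a wider list of uptake, activation, peroxisomal, ketone body and control genes. Of 68 genes in it 66 were tested, the muscle isoform Cpt1b and the uptake protein Cd36 having too few counts, and 0 passed edgeR's test in either direction, with 1 (Fabp7) under an unadjusted p of 0.05. DESeq2 and limma-voom also called 0 of them, each with 1 under an unadjusted p of 0.05. Fold changes were negative in 38 of 66 (57.6%), with a median of -0.049, and 6 of 66 (9.09%) did not overlap between the groups. Over all tested genes the shares were 50.9% negative and 10.5% not overlapping, so the wider list lay near the background on the second measure. On the lower side the smallest p belonged to Fabp7, Phyh, Dbi, Crot and Ppargc1b. Fabp7, the fatty acid-binding protein of radial glia and stem cells, measured 92.8, 51.1 and 59.5 CPM after vehicle and 41.4, 42.2 and 48.5 CPM after antagomir, without overlap (log2 fold change -0.62 ± 0.24 (SE), edgeR adjusted p = 0.949). Its highest value was in vehicle replicate 1, and it is also one of the stem cell markers. Phyh, the peroxisomal enzyme of phytanic acid breakdown, measured 132 ± 8.85 CPM after vehicle and 108 ± 4.67 CPM after antagomir (log2 fold change -0.29 ± 0.13 (SE), edgeR adjusted p = 0.949). Dbi, the acyl-CoA-binding protein, measured 1056 ± 90.3 CPM after vehicle and 861 ± 124 CPM after antagomir (log2 fold change -0.30 ± 0.15 (SE), edgeR adjusted p = 0.949). Phyh and Dbi also did not overlap between the groups, whereas the next 2 did. Crot, the peroxisomal carnitine octanoyltransferase, measured 126 ± 20.4 CPM after vehicle and 101 ± 12.02 CPM after antagomir (log2 fold change -0.33 ± 0.17 (SE), edgeR adjusted p = 0.949). Ppargc1b, the coactivator PGC-1beta, measured 6.198 ± 3.47 CPM after vehicle and 3.04 ± 1.200 CPM after antagomir (log2 fold change -1.03 ± 0.55 (SE), edgeR adjusted p = 0.949), with its high value in vehicle replicate 3.

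On the higher side the smallest p belonged to Lipe, Pdk4, Tmlhe, Acad10 and Mut. Lipe, hormone-sensitive lipase, measured 16.3 ± 3.02 CPM after vehicle and 21.9 ± 3.62 CPM after antagomir (log2 fold change 0.43 ± 0.25 (SE), edgeR adjusted p = 0.949). Pdk4, a kinase that restrains pyruvate use and a known target of the fatty acid-sensing receptors, measured 77.7, 85.01 and 105 CPM after vehicle and 96.4, 97.8 and 143 CPM after antagomir (log2 fold change 0.33 ± 0.20 (SE), edgeR adjusted p = 0.949). Its groups overlapped, and antagomir replicate 3 was the high value. Tmlhe, the first enzyme of carnitine synthesis, and Acad10, a dehydrogenase of the same family as Acads, had log2 fold changes of 0.47 ± 0.33 and 0.55 ± 0.42. Mut, the methylmalonyl-CoA mutase of odd-chain breakdown, measured 137 ± 19.2 CPM after vehicle and 156 ± 5.73 CPM after antagomir without overlap (log2 fold change 0.18 ± 0.15 (SE), edgeR adjusted p = 0.949).

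Of the other wider pathway genes, Hsd17b4, a multifunctional enzyme of peroxisomal oxidation, measured 167 ± 13.2 CPM after vehicle and 164 ± 16.4 CPM after antagomir (-0.021 on the log2 scale). Slc22a5, the carnitine uptake transporter, measured 30.5 ± 12.6 CPM after vehicle and 32.2 ± 6.47 CPM after antagomir. In both genes the means differed by less than the spread between libraries. Mlycd, which removes the CPT1 inhibitor malonyl-CoA, measured 40.8 ± 0.935 CPM after vehicle and 43.8 ± 5.05 CPM after antagomir (0.10 on the log2 scale). Acsbg1, the synthetase of glia also called bubblegum, measured 705, 589.7 and 676 CPM after vehicle and 619.6, 418 and 557 CPM after antagomir (log2 fold change -0.30 ± 0.17 (SE), edgeR adjusted p = 0.949), and antagomir replicate 2 was again lowest.

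Which libraries were high and low was shared by several members. Antagomir replicate 2 was the lowest of the 6 libraries for 10 of 31 members, and vehicle replicate 3 the highest for 11. The same was not counted over all tested genes, so it cannot be called particular to the members. Antagomir replicate 2 also had the fewest estimated counts (14866453) and vehicle replicate 3 the most (19694409). The same antagomir library had the lowest summed astrocyte level (3133 TPM) and the lowest summed stem cell level (1598 TPM), and the highest oligodendrocyte level (15349 TPM). Fold changes were negative for 8 of 8 astrocyte, 7 of 8 stem cell, 8 of 8 microglia and 6 of 6 ependymal markers. The microglia sums were 1729.6, 195 and 105 TPM after vehicle and 85.8, 134 and 217 TPM after antagomir. Only vehicle replicate 1 was high, and the other libraries overlapped between the groups. Fold changes were positive for 7 of 7 neuroblast, 7 of 7 oligodendrocyte and 4 of 4 oligodendrocyte precursor markers (median 0.98 for the last). That of the neuroblast marker Cd24a was only 0.00025. The neuroblast sums overlapped, at 951, 454 and 512 TPM after vehicle and 1478, 773 and 707 TPM after antagomir. None of these markers passed the test. At an unadjusted p under 0.05 edgeR had 12 of the 52 tested markers of all cell types (23.1%). The shares were 4.1% of all tested genes and 3.23% of the members. The markers were chosen with earlier results of these data known, and markers of the same cell type are not independent. The 23.1% therefore cannot be weighed against the 4.1%. The stem cell and astrocyte lists share Slc1a3, which measured 766 TPM in antagomir replicate 2, so their sums are not independent. The part of the marker differences in the members' fold changes was not tested. In vehicle replicate 1, the library with 1729.6 TPM of microglia markers, the members summed to 3321.6 TPM and Acsl4 had its highest level (19.2 CPM). A part of microglia in either value was not tested.

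**Figure D4:**
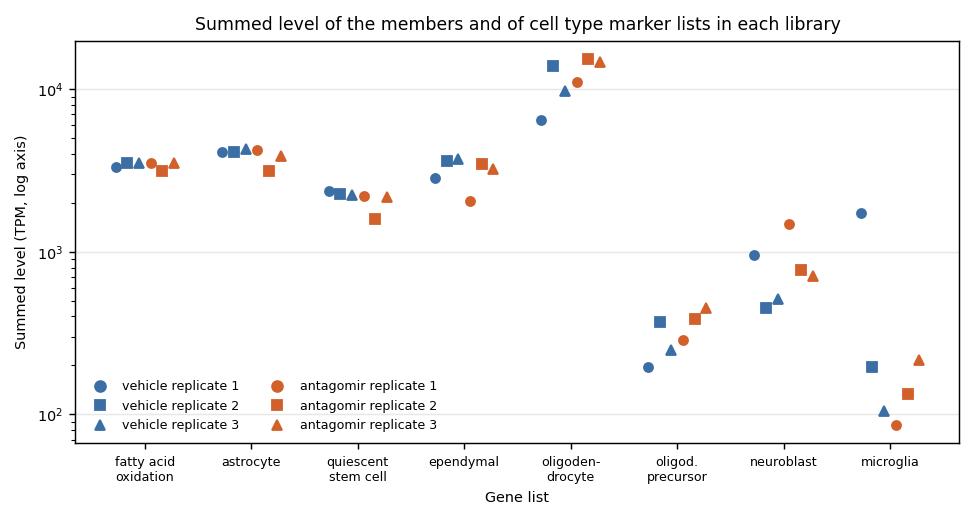
Summed level in TPM (log axis) of the 31 members and of 7 cell type marker lists, with 1 point per library. The members lie between 3154 and 3528 TPM. Microglia markers reach 1730 TPM in vehicle replicate 1, and antagomir replicate 2 is lowest for the members, the astrocyte list and the stem cell list.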

How the data were processed

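RNA was measured in 3 vehicle and 3 antagomir libraries of sorted subependymal cells (SMART-Seq v4 cDNA, 100 bp paired-end reads, per the labels' protocols). Groups and replicate numbers came from the sample titles, not from the treatment protocol, which is the same for all samples. Per the submitters' processing notes, kallisto, sleuth and mm10 were used; their versions were not given in the sources used here. Estimated counts per transcript, as deposited and per the file headers, are fragments divided among transcripts by kallisto, without normalization. The deposited TPM values divide them by effective length and scale each library to the same total, per the file headers. Reads shared by similar genes are divided by a model.

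Of 99567 transcripts, 98294 (98.7%) matched GENCODE M21 (GRCm38), and counts were summed per gene and rounded. edgeR 4.0.16 in R 4.3.3 tested 15012 genes (TMM, filterByExpr with a minimum count of 10, quasi-likelihood, group as the only term, Benjamini-Hochberg threshold 0.05). Standard errors were taken from its F statistic. Alternatives were other scaling factors and filters, DESeq2 1.42.0, limma-voom (limma 3.58.1), length offsets, a replicate block and each library left out. No pair of libraries was near-identical. Members, roles, lists and markers were chosen with earlier results of these data known. The text names all members and, from the wider list, a set of genes, 2 of which are not reported here, and the 5 with the smallest p in each direction.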

Additional observations from a re-analysis of the deposited data

How the results depend on the processing

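Of 434 fold changes of members under 14 alternatives, 413 kept their direction and 0 passed the threshold (lowest adjusted p = 0.478). Of the 21 that turned sign, 16 came from leaving out a library. The others were Cpt1c (-0.015) and Slc25a20 (-0.0069) with upper quartile factors, Acadm (0.00601) and Crat (-0.14) with length offsets, and Ppara (0.025) with limma-voom. Without single libraries the fold changes that turned ranged from -0.046 to 0.079 for Acadvl, -0.61 to 0.59 for Acsl4, -0.13 to 0.17 for Cpt1c, -0.059 to 0.15 for Slc25a20, -0.079 to 0.17 for Crat, -0.32 to 0.29 for Ppara, -0.063 to 0.24 for Acat1, -0.12 to 0.0033 for Cpt1a, -0.26 to 0.043 for Eci2 and -0.12 to 0.013 for Hadha; the cause was not tested. The median over members ranged from -0.14 to -0.031 and that of the wider list from -0.082 to 0.0075 without single libraries. DESeq2 called 1 gene of 14977, not a member; edgeR and limma-voom called 0 of 15012, with 616 and 696 at an unadjusted p under 0.05 (781 by DESeq2). Members without overlap numbered 4 in TPM (a scale added after seeing the data) against 8 in CPM, and 8 to 10 with 3 other added scalings, where 10.5 to 10.8% of all tested genes did not overlap.

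Libraries sharing a replicate number deviated together with correlations of 0.195, 0.075 and 0.028, against -0.186 to 0.14 for libraries of different number. The main test did not take the numbers as pairs, and these values cannot decide whether they mark pairs. With the replicate block 0 genes and 0 members were called, 21 members were negative and 3 (9.68%) lay under an unadjusted p of 0.05, against 8.55% of all tested genes, with a median of -0.082.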
